A study of Mus musculus with 6 samples.

Results

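The enzymes of gluconeogenesis were measured in kidney tissue of mice lacking Fh1, the gene of fumarate hydratase, and in controls. The 8 genes are Pcx, Pck1, Pck2, Fbp1, Fbp2, G6pc, G6pc3 and Slc37a4. They were taken by name, as all probe sets annotated to exactly 1 of them, which gave 15 of the 45101 probe sets of the array; where a gene had several, the one brightest on average stood for it, and 18194 genes were tested in the same way. The knockout group held 3 samples of macro-dissected cystic epithelium from Fh1 knockout mice, and the wild-type group 3 samples of renal epithelium from disease-free littermates, described as matched by sex. The labels name no treatment and give no age, strain, Cre driver or sex of a single animal. Each sample was hybridised to 1 Affymetrix array. The labels do not say that the samples came from separate animals, so p-values reflect variation among the samples, which may be technical.

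Gluconeogenesis builds glucose from lactate, amino acids and glycerol. It runs glycolysis backwards except at the irreversible steps, which have enzymes of their own. Pyruvate carboxylase (Pcx) makes oxaloacetate in mitochondria, phosphoenolpyruvate carboxykinase (cytosolic Pck1, mitochondrial Pck2) turns it into phosphoenolpyruvate, fructose bisphosphatase (Fbp1, Fbp2) removes a phosphate from fructose bisphosphate, and glucose-6-phosphatase (G6pc, G6pc3) releases glucose inside the endoplasmic reticulum, which glucose-6-phosphate enters through the transporter encoded by Slc37a4. In the kidney the pathway belongs to the proximal tubule, which uses lactate and glutamine in particular. Fumarate hydratase stands between fumarate and malate on the route by which glutamine carbon reaches oxaloacetate.

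Expression is given as log2 RMA values (robust multi-array average, a summary of the probes of a set after background correction and normalisation between arrays). A difference of 1 is a doubling. RMA gives no detection call, and levels of different probe sets are not comparable with each other. Fh1 itself read 12.41, 12.34 and 12.22 in wild-type 1 to 3 and 11.54, 11.60 and 11.61 in knockout 1 to 3. Its log2 fold change was -0.74 (SE 0.08, limma adjusted p = 0.000396); it has 1 probe set, whose position relative to the deletion the sources used here do not give. Wild-type 2 stood apart from the other arrays in sex-linked transcripts. Xist, transcribed from the inactive X chromosome, read 11.96 in wild-type 2, 6.38 and 6.25 in wild-type 1 and 3, and 5.61 to 7.97 in knockout samples. The Y-linked gene Kdm5d read 4.38 in wild-type 2, 7.38 and 7.25 in the other wild-type samples and 7.86 to 8.05 in knockout samples. These values are at odds with the description of the groups as matched by sex, since wild-type 2 alone has the pattern of a female. The part of sex in the results was not tested. For the 8 genes, fold changes, isoenzyme gaps and values relative to tubule markers are therefore also given without wild-type 2. Fold changes of other genes are given over all 6 arrays only. Over all genes, 5033 were called lower and 3928 higher in the knockout, or 6882 and 3379 once every array was shifted to a common median. The median log2 fold change over all genes was -0.11.

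The expression of the pathway was not uniformly lower in cystic tissue. Of the 8 genes, 5 fell in the knockout (Pcx, Pck1, Fbp1, G6pc and Slc37a4), 1 rose (Pck2), and G6pc3 and Fbp2 were not called by limma at an adjusted p under 0.05. Among all genes tested, 27.7% were called lower and 21.6% higher. The median log2 fold change of the 8 genes was -1.36. In this bulk tissue, fewer cells that express a gene and less RNA per cell cannot be told apart. The members' direction and call stood in 127 of 128 combinations of gene and alternative setting, the exception being Fbp2.

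**Figure D1:**
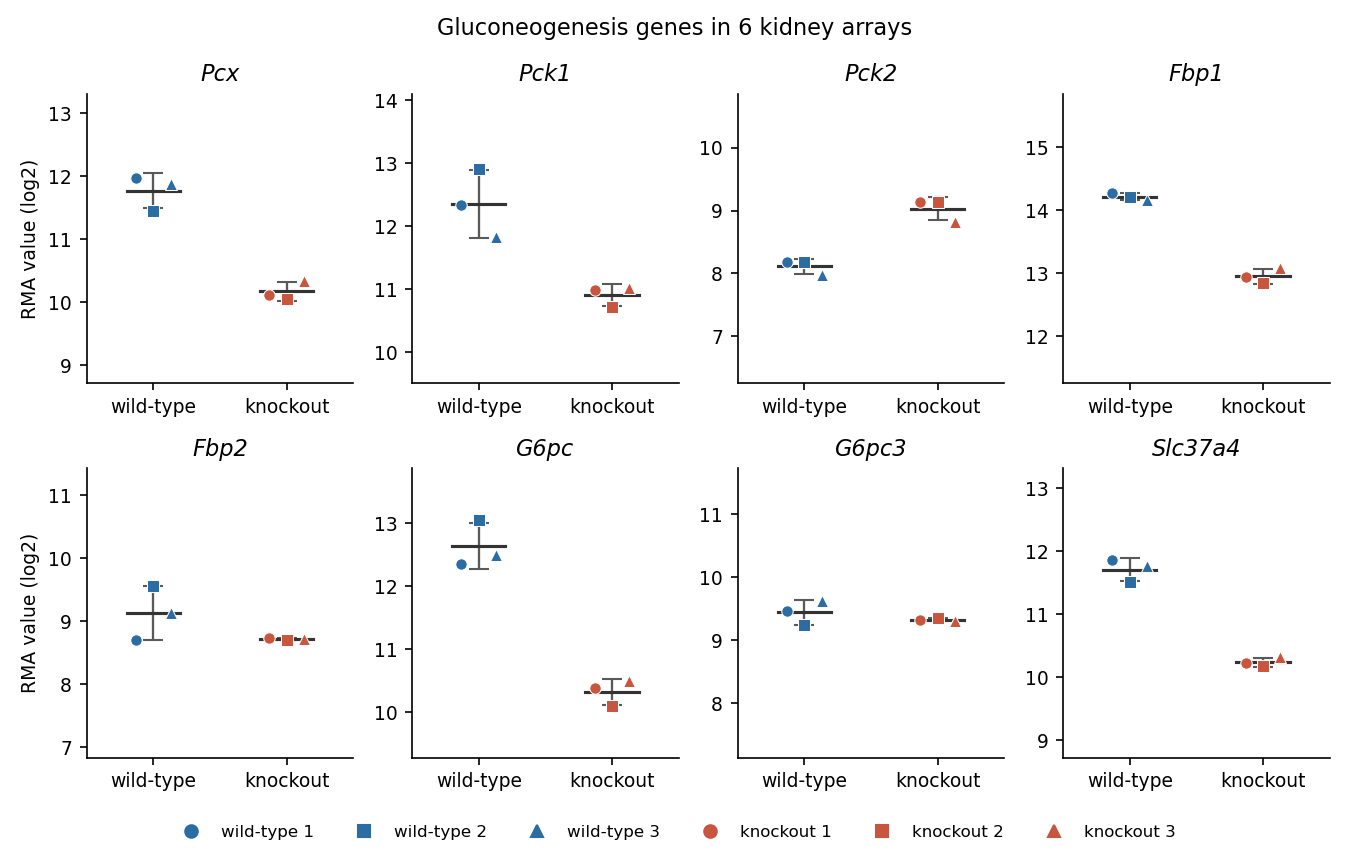
Log2 RMA values of the 8 genes in each array (points; shape gives the replicate number), with the mean and SD of the 3 samples per group; every panel spans the same number of log2 units. The 3 knockout points lie below all wild-type points for Pcx, Pck1, Fbp1, G6pc and Slc37a4, above them for Pck2, and overlap them for Fbp2 and G6pc3.

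The promoters of 3 of these genes are shown because the genes span the range of the response: G6pc had the largest fall, Pck1 is the classic hormone-controlled gene of the pathway, and Pck2 is the gene that rose. Windows run from 250 bases before to 50 bases after the transcription start, 5′ to 3′ on the gene's strand, from RefSeq on GRCm38.p6. All 8 genes had at least 1 window, 11 in all. Pck1 lies at chr2:173152823-173153122 (+ strand), G6pc at chr11:101367466-101367765 (+ strand) and Pck2 at chr14:55540016-55540315 (+ strand). Capitals mark matches to the motifs searched.
Pck1: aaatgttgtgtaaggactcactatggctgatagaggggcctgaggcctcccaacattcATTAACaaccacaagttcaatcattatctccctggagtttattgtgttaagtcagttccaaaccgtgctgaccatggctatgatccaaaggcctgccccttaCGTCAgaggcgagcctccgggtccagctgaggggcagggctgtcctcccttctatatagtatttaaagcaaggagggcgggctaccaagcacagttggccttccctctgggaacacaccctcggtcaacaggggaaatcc
G6pc: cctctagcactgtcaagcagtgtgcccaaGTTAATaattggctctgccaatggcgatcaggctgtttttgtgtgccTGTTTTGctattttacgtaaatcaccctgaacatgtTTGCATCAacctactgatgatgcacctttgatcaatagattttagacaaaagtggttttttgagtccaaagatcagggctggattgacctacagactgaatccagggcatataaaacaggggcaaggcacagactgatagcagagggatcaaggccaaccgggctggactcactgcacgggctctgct
Pck2: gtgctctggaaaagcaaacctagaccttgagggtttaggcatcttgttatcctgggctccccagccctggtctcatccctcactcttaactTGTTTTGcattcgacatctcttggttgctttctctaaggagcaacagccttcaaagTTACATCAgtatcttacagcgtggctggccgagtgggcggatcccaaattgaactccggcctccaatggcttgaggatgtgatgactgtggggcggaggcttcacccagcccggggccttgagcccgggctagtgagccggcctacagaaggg

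The letters searched for, on both strands, were TGACG (the half-site of the cAMP response element), TGATGNAA (the element bound by the stress factor ATF4), ACGTG (the core of the hypoxia response element), TGTTTAC (a FOXO site), TGTTTTG (the insulin response core), GTTAAT (an HNF1 half-site), AAAGTCC (an HNF4 core) and TGTTCT (a glucocorticoid receptor half-site). No match of one motif overlapped a match of another in these 3 windows. Pck1 held a match to the cAMP half-site at base -90 from the start and one to the HNF1 half-site at base -192. The cAMP half-site was in 20.8% of all 32851 promoter windows of this length and the HNF1 half-site in 7.10%. G6pc also held an HNF1 half-site, at base -221, and an insulin response core at base -174, a motif found in 6.28% of windows and also in Pck2, at base -159. The ATF4 element, found in 3.97% of windows, was matched in Pck2, which rose, at base -103, and in G6pc, which fell, at base -138. The hypoxia core, found in 19.6% of windows, was matched in none of these 3 windows, and in windows of G6pc3, Fbp2 and Pcx. The FOXO site was in 3.65%, the HNF4 core in 4.21% and the glucocorticoid half-site in 19.0% of windows, and among the 8 genes they were matched in none, in Fbp2 and in G6pc3, respectively. These matches describe letters in a window and show no binding.

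Pyruvate carboxylase opens the pathway from lactate and alanine. Its transcript read 11.97, 11.45 and 11.88 in wild-type 1 to 3 and 10.12, 10.06 and 10.34 in knockout 1 to 3. The groups were separated by more than 1 log2 unit, and wild-type 2 was the lowest of the controls. Pcx was 3.03-fold lower, with a log2 fold change of -1.60 (SE 0.15, limma adjusted p = 0.000174), and -1.76 without wild-type 2. The array carries 5 probe sets for this gene, because pyruvate carboxylase is one of the array's own control transcripts, with sets named for the 5′ end, middle and 3′ end. All 5 were called lower, when 23.3% of all probe sets were. Their log2 fold changes were -1.46 in the 5′ set, -1.58 and -1.77 in the sets named MA and MB, -1.60 in the 3′ set and -1.68 in the remaining set. The 3′ value minus the 5′ value, a measure of how evenly RNA was copied, was 2.37 to 2.52 in wild-type and 2.15 to 2.48 in knockout samples. For Actb, another control transcript, it was 0.83 to 0.95 in wild-type and 0.68 to 0.74 in knockout samples. For Gapdh it was higher in the knockout, at -0.17 to -0.15 in wild-type and -0.13 to -0.08 in knockout samples, and for Tfrc the groups overlapped, at 1.67 to 1.93 and 1.64 to 1.87. The part of these differences in the results was not tested.

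The carboxykinases moved in opposite directions. Pck1, the cytosolic enzyme, whose transcript level is held to set the pathway's rate in kidney and liver, read 12.34, 12.91 and 11.84 in wild-type and 11.00, 10.71 and 11.02 in knockout samples. The wild-type values were widely spread (SD 0.54), wild-type 2 being the highest, yet all lay above the knockout values. Pck1 was 2.73-fold lower (log2 fold change -1.45, SE 0.25, limma adjusted p = 0.00262). The size depended on the probe set: another bright set gave a log2 fold change of -2.05, or 4.15-fold, and a dim one, at 4.13 to 7.02, gave -1.62, all called lower over all probe sets. Without wild-type 2 the fall was 2.26-fold (log2 fold change -1.17, limma adjusted p = 0.00169).

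Pck1 is also a gene of fat cells, and adipocyte markers differed between arrays within both groups. Adipoq, which encodes the fat hormone adiponectin, read 6.65, 10.73 and 6.72 in wild-type 1 to 3 and 5.60, 4.32 and 10.30 in knockout 1 to 3. The mean of the 6 measured adipocyte markers was 7.64 to 9.29 in wild-type and 6.51 to 8.83 in knockout samples, highest in wild-type 2 and knockout 3. Of these 6 markers, 1 was called, Lpl, which was lower (log2 fold change -2.11). Lpl read 12.82, 12.36 and 12.58 in wild-type 1 to 3, lowest in wild-type 2, where Adipoq was highest. In knockout 1 to 3 it read 10.16, 10.12 and 11.16, highest in knockout 3. Pck1 was highest among controls in the array with the highest Adipoq value, whereas knockout 3, with Adipoq at 10.30, and knockout 1, with Adipoq at 5.60, had Pck1 values of 11.02 and 11.00. The part of fat tissue in the spread of Pck1 was not tested.

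Pck2, the mitochondrial enzyme, known as a gene of the amino acid stress response as well, read 8.18, 8.19 and 7.98 in wild-type and 9.13, 9.13 and 8.83 in knockout samples. All knockout values exceeded all wild-type values. Pck2 rose 1.88-fold (log2 fold change 0.91, SE 0.11, limma adjusted p = 0.000642), and without wild-type 2 the log2 fold change was 0.95. Its second probe set rose as well, by a log2 fold change of 0.71, when 20.6% of all probe sets were called higher. The gap between Pck1 and Pck2 within an array shrank from 4.24 ± 0.44 (SD, n = 3) log2 units in wild-type to 1.88 ± 0.31 (SD, n = 3) in knockout samples. That change of -2.36 (-2.12 without wild-type 2) had an exact permutation p = 0.10, two-sided, which is the smallest that 3 against 3 samples can give, and the adjusted p over the 3 isoenzyme pairs compared was also 0.10.

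**Figure D2:**
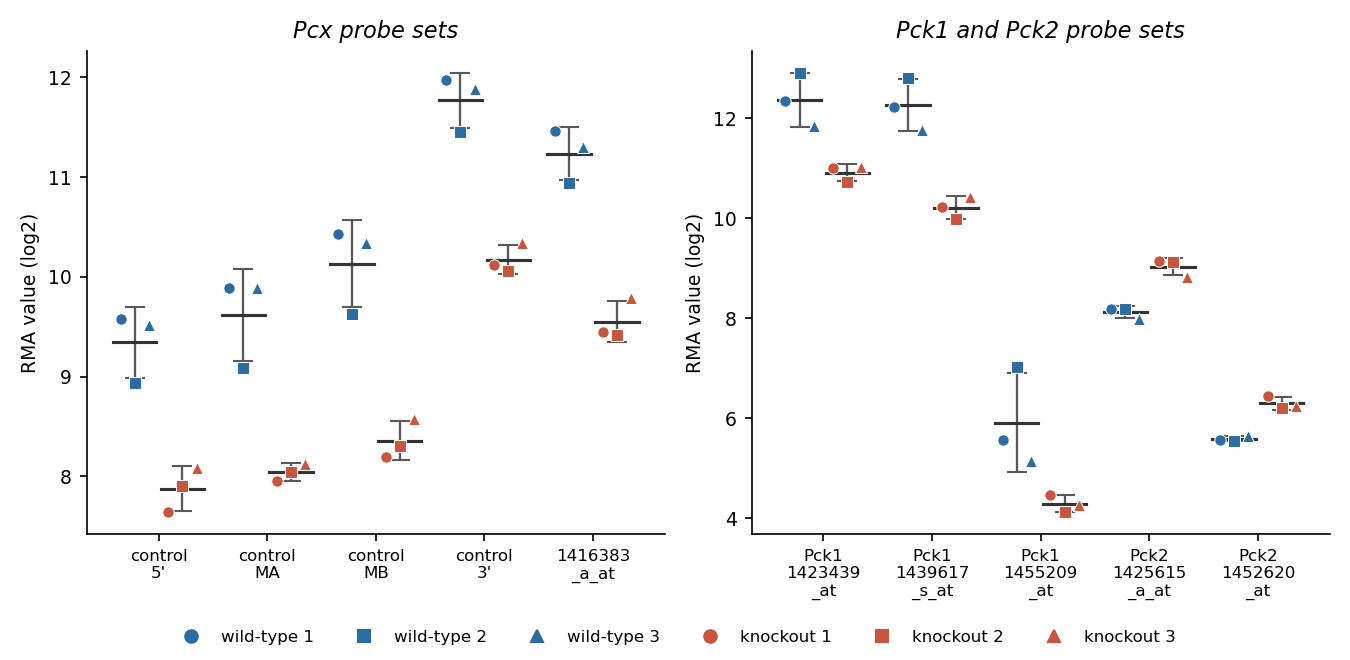
Log2 RMA values of each probe set of Pcx (left, control sets labelled 5′, MA, MB and 3′, then the remaining set) and of Pck1 and Pck2 (right) in every array, with the mean and SD of the 3 samples per group. All 5 Pcx sets and all 3 Pck1 sets are lower in knockout samples and both Pck2 sets are higher.

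Fructose bisphosphatase is the step that opposes phosphofructokinase. Fbp1, the form of liver and kidney, read 14.27, 14.22 and 14.17 in wild-type and 12.94, 12.84 and 13.08 in knockout samples. It had the smallest wild-type spread of the 8 genes, with an SD of 0.05. Fbp1 was 2.41-fold lower (log2 fold change -1.27, SE 0.09, limma adjusted p = 5.82e-05), and the log2 fold change was -1.27 without wild-type 2 too. Fbp2, the muscle form, read 8.71, 9.56 and 9.13 in wild-type and 8.74, 8.70 and 8.73 in knockout samples. The knockout values were nearly identical, and wild-type 1 lay among them. The log2 fold change of Fbp2 was -0.41, with a 95% interval of -0.85 to 0.04 (limma adjusted p = 0.109). Its call hung on single controls: without wild-type 1 it was called lower (log2 fold change -0.62, limma adjusted p = 0.013), and without wild-type 2 the log2 fold change was -0.19 (limma adjusted p = 0.25). The gap between Fbp1 and Fbp2 fell from 5.09 ± 0.45 (SD, n = 3) to 4.23 ± 0.11 (SD, n = 3), a change of -0.86 (-1.07 without wild-type 2) with exact permutation p = 0.10, two-sided (0.10 adjusted over 3 pairs). Skeletal muscle markers were measured for comparison with Fbp2. The mean of the 8 markers was 5.71 to 5.95 in wild-type and 5.13 to 5.21 in knockout samples, with 5 called lower. Among these were Ckm, muscle creatine kinase (log2 fold change -0.63), and Pvalb, which is also a distal tubule gene (-3.65). The fall of the mean rests largely on Pvalb, since the other markers had log2 fold changes from -0.63 to 0.06. Myh1 and Myh4, fast myosins of muscle that were also called lower, read 4.24 to 4.87 and 3.65 to 4.18 over all arrays, when the lower quartile of the arrays was 4.62 to 4.77.

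Glucose release showed the largest fall. G6pc, the catalytic subunit of liver and kidney, read 12.36, 13.06 and 12.49 in wild-type and 10.38, 10.09 and 10.49 in knockout samples. The groups did not overlap, and wild-type 2 was again the highest control. G6pc was 4.97-fold lower (log2 fold change -2.31, SE 0.19, limma adjusted p = 0.0001), and 4.30-fold lower without wild-type 2. Slc37a4, which carries glucose-6-phosphate to the enzyme, read 11.86, 11.51 and 11.76 in wild-type and 10.23, 10.18 and 10.32 in knockout samples. Here wild-type 2 was the lowest control, and the groups did not overlap. Slc37a4 was 2.77-fold lower (log2 fold change -1.47, SE 0.11, limma adjusted p = 6.74e-05), with a log2 fold change of -1.57 without wild-type 2.

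G6pc3, the subunit found in most tissues and known for its role in neutrophils, read 9.47, 9.24 and 9.63 in wild-type and 9.33, 9.35 and 9.31 in knockout samples. The knockout values fell inside the wild-type range. Its log2 fold change was -0.12, with a 95% interval of -0.37 to 0.14 (limma adjusted p = 0.387), and without wild-type 2 it was -0.22 (limma adjusted p = 0.089). The gap between G6pc and G6pc3 shrank from 3.19 ± 0.54 (SD, n = 3) to 0.99 ± 0.23 (SD, n = 3), a change of -2.20 (-1.89 without wild-type 2) with exact permutation p = 0.10, two-sided (0.10 adjusted over 3 pairs). In all 3 isoenzyme pairs the kidney and liver form lost ground against its partner in each knockout array relative to each wild-type array.

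Groups did not overlap for 6 of the 8 genes: 5 had all knockout values below all wild-type values and 1 had all above. Among all genes tested, 37.1% lay wholly below and 25.7% wholly above. Wild-type 2 held the highest control value for Pck1, Pck2, G6pc and Fbp2 and the lowest for Pcx, Slc37a4 and G6pc3. Without it, 5 of the 8 genes were still called lower and 1 higher, beside 4810 lower and 3860 higher of all 18194 genes tested.

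Proximal tubule markers fell in the same samples. The list leaves out the 8 genes and held 23 measured markers, of which 20 were called lower and none higher, with a median log2 fold change of -1.53. Slc22a7, an organic anion transporter, had a log2 fold change of -3.71 and Slc6a19, the neutral amino acid transporter, one of -2.87. Slc22a7 read 9.43, 11.61 and 9.07 in wild-type 1 to 3, so the size of its fall leans on wild-type 2. Aqp1, the tubule's water channel, had a value of -0.04 that was not called. The mean log2 value of the 23 markers was 12.14 to 12.35 in wild-type and 10.54 to 10.74 in knockout samples. The lowest single value was 5.63, for Slc22a7 in knockout 3, below the median of every array.

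Each gene of the pathway was therefore set against this marker mean within each array, with the wild-type mean taken as 0. Pcx came to -0.03 ± 0.10 (SD, n = 3), Slc37a4 to 0.10 ± 0.07 (SD, n = 3) and Pck1 to 0.12 ± 0.06 (SD, n = 3) in knockout samples, and for these the knockout values overlapped the wild-type values. The place of Pck1 hung on single controls, which read -0.01, 0.65 and -0.64 on this scale: without wild-type 2 its knockout values lay wholly above the others, at a mean of 0.45, and without wild-type 3 the mean was -0.20. Slc37a4 lay wholly above without wild-type 1, at 0.18, and overlapped when any other array was left out, at 0.05 without wild-type 2. Pcx overlapped whichever array was left out, at -0.13 without wild-type 2. G6pc stood below the marker mean at -0.74 ± 0.10 (SD, n = 3), with no overlap, and at -0.48 without wild-type 2, still with no overlap. Fbp1 stood above it at 0.30 ± 0.07 (SD, n = 3), also with no overlap, and at 0.35 without wild-type 2. Fbp2, G6pc3 and Pck2 stood above it by 1.16, 1.45 and 2.48, and by 1.43, 1.40 and 2.57 without wild-type 2. The SDs show the spread among arrays and not that among markers. Single markers had log2 fold changes from -3.71 to -0.04. That range holds the fold changes of all the genes but Pck2, those of G6pc (-2.31) and Fbp1 (-1.27) included. The values are a description and were given no test. The part of a smaller share of proximal tubule in the results was not tested.

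**Figure D3:**
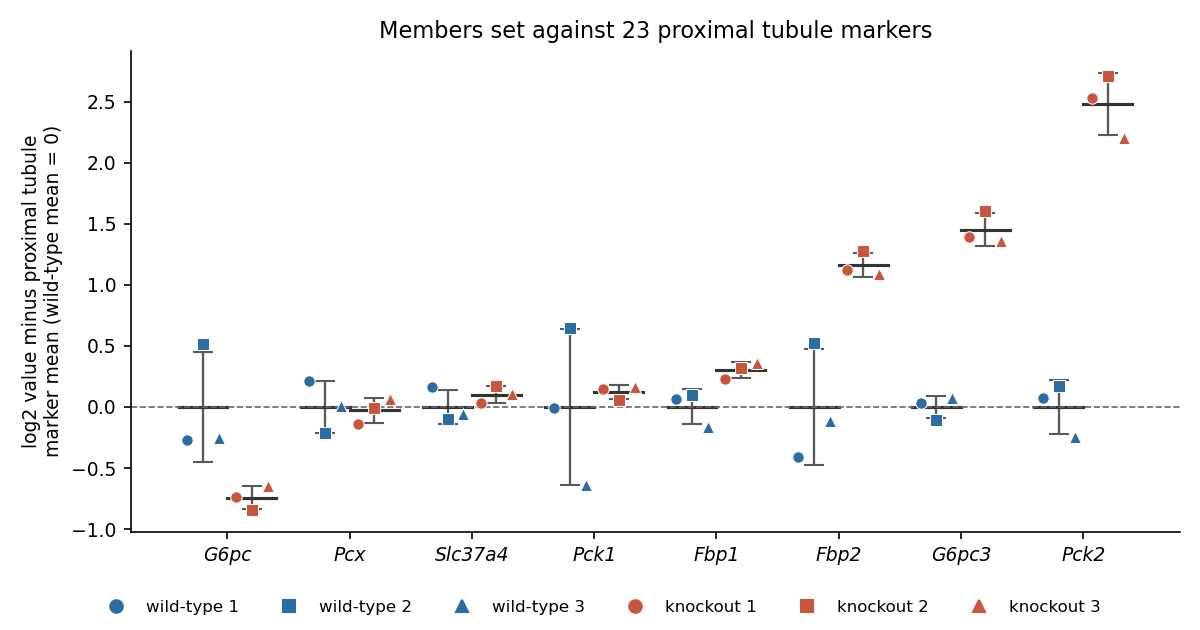
Log2 value of each gene minus the mean of 23 proximal tubule markers in the same array, shifted so that the wild-type mean is 0 (dashed line); bars give the mean and SD of 3 samples per group. Knockout values of Pcx, Slc37a4 and Pck1 overlap the wild-type values (that of Pck1 only through wild-type 2, that of Slc37a4 only through wild-type 1), those of G6pc lie below them, and those of Fbp1, Fbp2, G6pc3 and Pck2 lie above them.

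Markers of other cell types and tissues were counted beside the 27.7% of all genes called lower and 21.6% called higher. Loop of Henle and distal tubule markers were called lower for 8 of 9 (Pvalb and Egf most, the latter with a log2 fold change of -3.60). Pvalb read 5.47 to 6.02 in knockout samples, below the median of every array, so the size of its fall is uncertain. Collecting duct markers were called lower for 3 of 8. Those 3 were Slc26a4 (-2.45) and Slc4a1 (-2.11), of intercalated cells, and Aqp3 (-0.74), whereas Aqp2 (-0.23), Avpr2 (0.30), Scnn1b (0.18), Scnn1g (-0.02) and Foxi1 (-0.12) were not called. Immune cell markers were called higher for 13 of 15 (Laptm5 2.34, C1qb 2.28), and fibroblast and matrix markers for 9 of 12 (Fn1 2.86, Col3a1 2.76). The immune markers Csf1r (0.36) and Cd3e (-0.23) were not called. The fibroblast markers Pdgfra (-0.54), Pdgfrb (0.43) and Lum (0.43) were not called either. Among 8 hepatocyte markers, which bear on genes shared with the liver, 4 were lower and 1 higher. Alb, the albumin gene, had a log2 fold change of -1.59 and Fgb, fibrinogen beta, one of 1.86. Fgb read 5.14 in wild-type 1, below the median of its array, and 6.65 in wild-type 2, so the size of its rise is uncertain. The mean of the hepatocyte markers was 7.39 to 8.04 in wild-type, highest in wild-type 2, and 7.37 to 7.46 in knockout samples. Cps1, a defining hepatocyte enzyme, read 4.70 to 4.95 in all arrays, around their lower quartile of 4.62 to 4.77.

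Enzymes that gluconeogenesis shares with glycolysis or the malate-aspartate route were split. Counts for this and the following lists stand beside the 27.7% of all genes called lower and 21.6% called higher. Of 9 measured genes, 4 fell, 4 rose and Gapdh was not called (log2 fold change -0.05, limma adjusted p = 0.623). Those that fell exchange oxaloacetate, malate and aspartate: Got1, cytosolic aspartate aminotransferase, was 1.81-fold lower and Mdh1, cytosolic malate dehydrogenase, 1.71-fold lower, and the mitochondrial forms had log2 fold changes of -0.49 (Got2) and -0.25 (Mdh2). Those that rose are enzymes of glycolysis: Aldoa, aldolase A, was 1.94-fold higher, and Pgam1, Tpi1 and Pgk1 had log2 fold changes of 0.43, 0.40 and 0.25. Limma adjusted p-values of Aldoa, Got1 and Mdh1 were 9.29e-05 to 0.000555; Got2, Mdh2, Pgam1, Tpi1, Pgk1 and Gapdh were named after their values were seen. The median of the list was -0.05.

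Genes that bring in substrate were mostly lower, with 8 of 12 lower, 2 higher and 2 not called, and a median log2 fold change of -0.58. Slc5a12, a sodium-coupled lactate transporter of the proximal tubule, was 6.68-fold lower. Gpd1, glycerol-3-phosphate dehydrogenase, was 2.61-fold lower and Khk, ketohexokinase, which admits fructose, 2.36-fold lower. Gpt2, the mitochondrial alanine aminotransferase, was 1.67-fold higher, while its cytosolic partner Gpt had a log2 fold change of -0.95. Ldha, the lactate dehydrogenase subunit of glycolytic tissue, was the other that rose (0.51), and Glud1, glutamate dehydrogenase, had a log2 fold change of -0.50; Gpt, Ldha and Glud1 were named after their values were seen. With the mean of all probe sets per gene, 1 gene of the list was higher.

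Carriers that move the intermediates across the mitochondrial membrane fell in 6 of 7 cases and rose in none. Slc25a10, the dicarboxylate carrier, was 2.45-fold lower, Slc25a13, an aspartate-glutamate carrier, 1.90-fold and Slc25a11, the oxoglutarate-malate carrier, 1.83-fold. Slc25a1, the citrate carrier, was not called (log2 fold change 0.01, limma adjusted p = 0.904). The list's median log2 fold change was -0.80. Of the 4 glucose transporters 2 fell and 2 rose. Slc2a2 (GLUT2), by which glucose leaves the proximal tubule cell, was 1.61-fold lower and Slc5a2 (SGLT2), which reabsorbs filtered glucose, 5.29-fold lower. Slc2a1 (GLUT1) was 2.97-fold higher, and Slc5a1 (SGLT1) had a log2 fold change of 0.57.

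Of the 8 measured enzymes that run the irreversible steps towards pyruvate, 5 rose, 1 fell and 2 were not called, with a median log2 fold change of 1.27. Hk2, hexokinase 2, rose 16.3-fold, Pfkp, platelet phosphofructokinase, 5.79-fold and Pklr, the pyruvate kinase of liver and red cells, 3.12-fold, while Pfkm, muscle phosphofructokinase, fell 1.58-fold. Hk2 read 5.02, 6.07 and 6.03 in wild-type 1 to 3, each below the median of its array, so the size of its fold is uncertain. Limma adjusted p-values of genes given with a fold in these neighbouring lists lay between 4.35e-05 (Hk2) and 0.00226 (Gpt2).

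**Figure D4:**
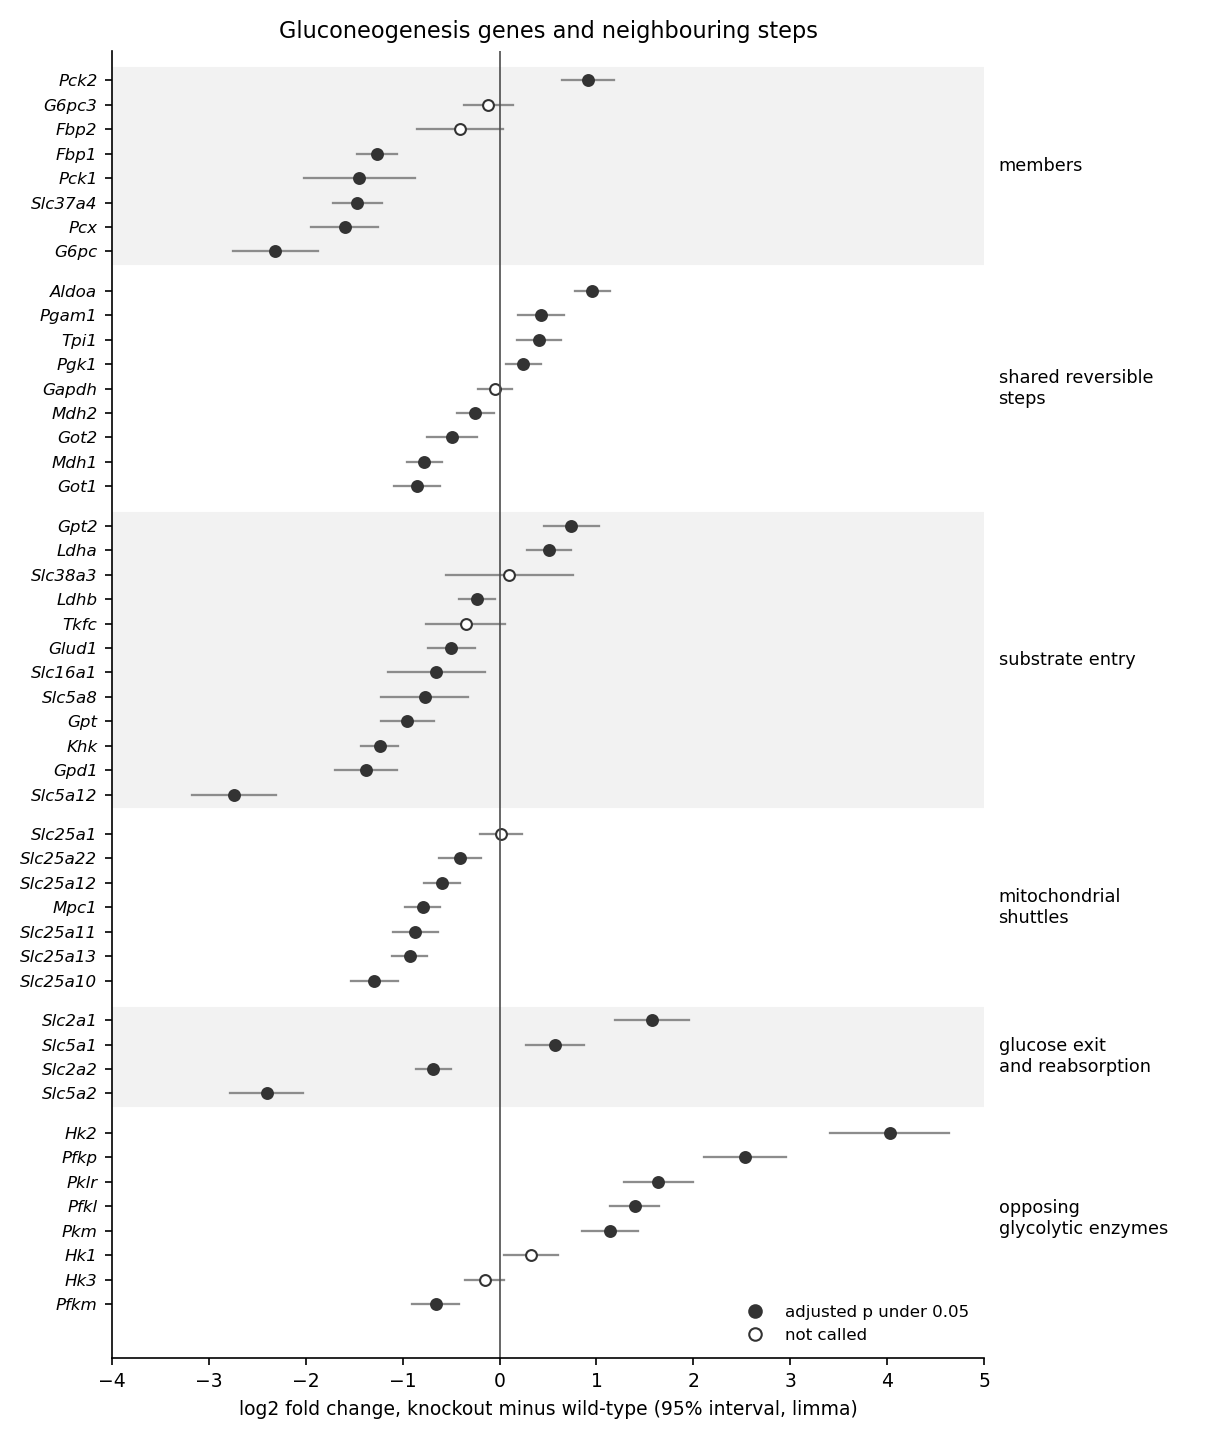
Log2 fold change, knockout minus wild-type, with its 95% interval from limma, for the 8 gluconeogenesis genes (members) and the measured genes of 5 neighbouring lists. Filled points passed an adjusted p under 0.05; G6pc is lowest among the 8 at -2.31, and Hk2 is highest of the plotted genes at 4.03.

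Regulators of the pathway gave 9 genes lower, 3 higher and 9 not called among 21 measured, with a median log2 fold change of -0.21. Among all genes tested, 27.7% were called lower and 21.6% higher. Pth1r, the receptor of parathyroid hormone, was 2.89-fold lower and Ppara, the nuclear receptor of fatty acid use, 2.38-fold lower. Pfkfb3, which makes a regulatory fructose bisphosphate distinct from the one that Fbp1 and Fbp2 act on, was 2.44-fold higher. That regulatory form activates phosphofructokinase and inhibits fructose bisphosphatase. The other genes that rose were Cebpb (log2 fold change 1.08) and Creb1, the cAMP-responsive factor (0.87). Among other regulators known to act on Pck1 and G6pc, the coactivator Ppargc1a had a log2 fold change of -0.81 (limma adjusted p = 0.000999). The transcription factor Hnf4a had one of -0.60 (limma adjusted p = 0.00104) and Foxo1 one of 0.00 (SE 0.08, limma adjusted p = 0.993). Of the same list, Cebpa (-0.48) and Nr3c1 (-0.23) were also called lower, and Foxo3 (-0.08) and Crtc2 (-0.11) were not called. Cebpb, Creb1, Ppargc1a, Hnf4a, Foxo1, Cebpa, Nr3c1, Foxo3 and Crtc2 were named after their values were seen.

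Genes whose profile over the 6 arrays was most like that of the main members were found by the root mean square difference of log2 values, after each gene's mean was subtracted, among 18186 other genes. For Fbp1 they were Mmut, methylmalonyl-CoA mutase of mitochondria (0.04 log2 units), Guca2b, uroguanylin (0.04), and Ehd3, an endocytic protein of glomerular endothelium (0.05). For G6pc they were Slc26a4, the pendrin anion exchanger of intercalated cells (0.12), Eci3, a peroxisomal enoyl-CoA isomerase (0.13), and Acy1, aminoacylase (0.13). For Pck1 they were Alb (0.14), Mymx, a muscle cell fusion protein (0.14), and Cdkn1c, a cyclin-dependent kinase inhibitor (0.16). Alb and Mymx share with Pck1 a high value in wild-type 2, at 9.20 against 8.31 and 8.10 in the other controls for Alb and 6.27 against 5.65 and 5.12 for Mymx. Mymx was dim, at 4.23 to 4.71 in knockout samples, where the lower quartile of the arrays was 4.62 to 4.65. The measure takes in the difference between groups, so it favours genes with a similar fold change.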

How the data were processed

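Total RNA of 6 samples was column-purified, biotin-labelled and hybridised to Affymetrix arrays, per the labels' protocols. The authors deposited RMA values on the log2 scale; RMA is named in the submitters' processing notes, their range of 2.90 to 14.8 shows the scale, and its version is not given in the sources used here. Of 45101 probe sets, 34958 had exactly 1 gene in the platform annotation, including 13 control sets, 932 had several and 9211 none. Symbols were updated through the RefSeq table of GRCm38.p6. The comparison of knockout with wild-type used limma 3.58.1 under R 4.3.3 (lmFit, then eBayes; two-sided; no covariate, no filter), Benjamini-Hochberg adjusted over 18194 genes, threshold 0.05; probe sets were adjusted over all 45101. The fit was tested on simulated data. An SE is limma's moderated one, and a fold is 2 to the power of the log2 difference. For arrays, 3 samples per group limit the precision.

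The genes, lists and tests were chosen with earlier results of these data known; motifs and the alternative without control sets were added after the data were seen. From each pathway list the 3 called genes with the largest change were named, with the largest in the other direction. From each marker list the 2 largest were named. Slc25a1, Slc5a1 and further marker genes were named outside this rule, as were the genes said above to be named after their values were seen. List genes with no probe set of their own were left out. Tables and plots used Python 3.11.15 and matplotlib 3.10.9.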

Additional observations from a re-analysis of the deposited data

How the results depend on the processing

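Over the 16 alternatives, the calls and directions of Pcx, Pck1, Pck2, Fbp1, G6pc, Slc37a4 and G6pc3 were those reported, and that of Fbp2 changed once (called lower without wild-type 1). Members called lower numbered 5 to 6 and called higher 1 when each array was left out, and 5 and 1 otherwise. Of all 18194 genes, 3160 to 4810 were called lower and 3113 to 3860 higher when each array was left out. Log2 fold changes with 1 array left out ran from -1.71 to -1.17 for Pck1, 0.84 to 1.01 for Pck2, -2.45 to -2.10 for G6pc, -1.33 to -1.21 for Fbp1, -1.76 to -1.50 for Pcx and -1.57 to -1.39 for Slc37a4. With the replicate number as a block, 5 members were lower and 1 higher (limma adjusted p = 0.00629 for Pck1, 0.101 for Fbp2). No call among the 8 changed, and over all genes 3930 were lower and 3510 higher. The sample titles share a number and name no pairs. Deviations of same-numbered samples correlated at -0.13 to -0.10, which with 3 samples per group cannot show whether they were paired. Leaving out the control sets, chosen after seeing the data, gave a log2 fold change of -1.68 for Pcx. Substrate entry genes called higher fell from 2 to 1 with the mean of all probe sets. Genes called lower over the whole array numbered 3160 without knockout 1, 3279 without knockout 3, 2371 at an adjusted p under 0.01 and 2334 with dimmer genes (below the median signal) removed. Signal over background is not given by RMA, so folds of dim probe sets are uncertain.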
